A study of Mus musculus with 18 samples.

Results

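The 32 genes described here encode enzymes of purine and pyrimidine nucleotide synthesis and salvage in mouse germinal centre B cells. They were taken by gene symbol from a table of 30452 genes, each symbol was found once at each time, and all 32 passed the filter on low values. RNA came from B1-8hi cells, whose heavy chain favours binding to the hapten NP, that had been moved into C57BL/6 hosts primed with ovalbumin in alum 2 weeks earlier. The transferred mixture held 15% DECP cells (Ly75+/+, CD45.1) and 85% DECN cells (Ly75-/-, CD45.1/2), and Ly75 encodes the endocytic receptor DEC205. Hosts were then immunised with NP-OVA in the footpad, and on day 6 all of them received anti-DEC205-OVA, an antibody to DEC205 joined to ovalbumin. Light zone cells (B220+ CD38- CD95+ CD83hi CXCR4lo) were sorted from the popliteal lymph node, and 18 libraries were made. At 12 h after the antibody there were 3 libraries of DECP cells and 3 of DECN cells. At 24 h there were 4 libraries of DECP cells from hosts that also received rapamycin with the antibody (2.5 mg/kg; the drug inhibits mTORC1, a kinase complex that drives growth), 4 of DECP cells without it and 4 of DECN cells. Whether each library stands for its own animals is not stated, and the p-values therefore rest on the spread among libraries, which may be technical.

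Cells make purine nucleotides from phosphoribosyl pyrophosphate (PRPP) by a chain of enzymes that ends at inosine monophosphate (IMP), which is then turned into AMP or GMP. Pyrimidines are made by a shorter chain that ends at uridine monophosphate, from which CTP and thymidylate are derived. Salvage enzymes rebuild nucleotides from free bases and nucleosides, and further kinases bring each nucleotide to the triphosphate used for RNA and DNA. Dividing lymphocytes are known for drawing heavily on the de novo chains, and in other cell systems both MYC and mTORC1 are known to raise them.

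Values are TPM, a relative transcript abundance corrected for transcript length, and the tables of the 2 times were normalized separately, so levels are compared only within a time. Changes are given as log2 changes of TPM + 1, with DECP over DECN, rapamycin-treated DECP over DECP or rapamycin-treated DECP over DECN, and were tested across all genes with limma. The threshold was an adjusted p of 0.05 by Benjamini and Hochberg. A gene is said to rise or fall where it passed. In these bulk samples fewer cells of a type and less RNA per cell cannot be told apart. Ly75 itself lay between 26.0 and 39.6 TPM in DECP libraries at 12 h, above the 8.53 to 10.1 TPM of DECN libraries. At 24 h it lay between 8.66 and 19.0 TPM in rapamycin-treated DECP, between 10.3 and 18.1 TPM in DECP and between 2.76 and 6.66 TPM in DECN libraries. The B cell gene Cd79a was at or above 145 TPM in every library, whereas Cd3e, which defines T cells, stayed at or under 2.12 TPM and the macrophage gene Csf1r at or under 1.54 TPM. Of the 11 genes of a macrophage and dendritic cell list, Apoe was the single one that passed, and it fell in DECP over DECN at both times and rose with rapamycin over DECP. The list summed to 675 to 847 TPM in DECP and 1278 to 1664 TPM in DECN at 12 h. At 24 h it summed to 623 to 1194 TPM in rapamycin-treated DECP, 420 to 626 TPM in DECP and 1038 to 1135 TPM in DECN, nearly all of it Apoe, with Adgre1, C1qa, C1qb and C1qc at 0 in every treated and untreated DECP library. The list of 7 T cell genes summed at 12 h to 169 to 180 TPM in DECP and 211 to 241 TPM in DECN libraries. At 24 h Cd3d rose and Lck fell in DECP over DECN, Lck rose with rapamycin over DECP, Cd3d rose with rapamycin over DECN, and the list summed to 153 to 171 TPM in rapamycin-treated DECP, 110 to 136 TPM in DECP and 139 to 188 TPM in DECN libraries. Of 6 genes of naive and memory B cells, Fcer2a and Klf2 fell in DECP over DECN at 24 h, Fcer2a rose with rapamycin over DECP, and the list summed to 139 to 222 TPM in rapamycin-treated DECP, 72.5 to 121 TPM in DECP and 138 to 168 TPM in DECN libraries. Of 5 plasma cell genes, Jchain fell with rapamycin over DECP, and the list summed to 449 to 785 TPM in rapamycin-treated DECP, 831 to 1160 TPM in DECP and 705 to 906 TPM in DECN libraries. The part of these genes in the results below was not tested.

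The most abundant member in each of the 5 groups was Dtymk, which encodes thymidylate kinase. Its mean was 1441 TPM in DECP and 1579 TPM in DECN at 12 h, and 622 TPM in rapamycin-treated DECP, 609 TPM in DECP and 373 TPM in DECN at 24 h. At 12 h Tyms, Pfas and Paics came next in both groups, and the ranges of Tyms and Pfas overlapped in DECP. At 24 h Dut and Impdh2 stood next in all 3 groups. Cad, which encodes the multifunctional enzyme that opens pyrimidine synthesis, was among the lowest 2 members in every group, at 3.04 TPM in rapamycin-treated DECP, 3.40 TPM in DECP and 2.17 TPM in DECN at 24 h.

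At 12 h 5 members rose in DECP cells and 0 fell, where 1.84% of the 13429 genes tested rose and 1.05% fell. The median log2 change of the 32 members was 0.76, beside -0.054 over all genes tested. The values were above 0 for 29 of the 32 members, where 45.8% of all genes were, and 20 were higher in every DECP library than in every DECN library, where 12.6% of all genes were. At 24 h 11 members rose and 0 fell, where 2.72% of the 12783 genes tested rose and 1.32% fell, with a median log2 change of 0.77 beside 0.00056 over all genes. Again 29 values were above 0, where 50.1% of all genes were. Of the 32, 14 were higher without overlap at 24 h, where 6.81% of all genes were. Uck1 was the single member that was lower without overlap, where 4.7% of all genes were.

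**Figure D1:**
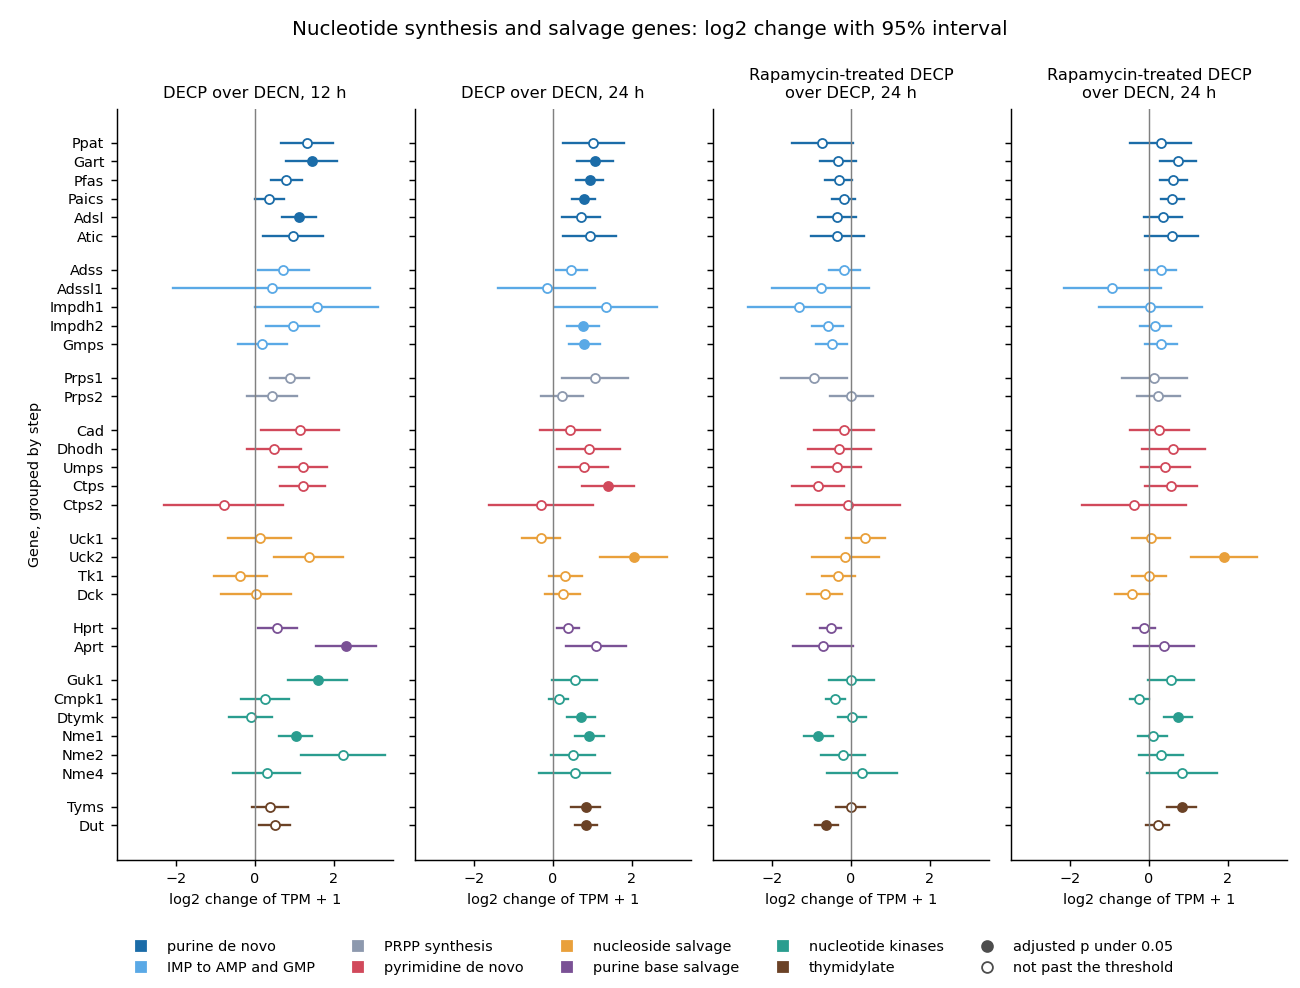
Log2 change of TPM + 1 (x axis) of each of the 32 genes (y axis, grouped by step) in 4 comparisons, with 95% intervals from limma; filled points passed the threshold. In DECP over DECN most points lie right of 0 at both times, and in rapamycin-treated DECP over DECP 27 of 32 lie left of 0.

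The call at 12 h rests on all 6 libraries. With any 1 of them left out, 0 of the 32 members passed the threshold, whereas the log2 changes of the 5 called members stayed between 0.92 and 2.53. Another 5 members (Ctps, Nme2, Pfas, Ppat and Umps) had adjusted p-values between 0.0503 and 0.0536 in limma with Benjamini-Hochberg adjustment, just short of the threshold.

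All 6 genes of the purine chain from PRPP to IMP were higher in every DECP library than in every DECN library at 12 h, where 12.6% of all genes were. Their median log2 change was 1.04, and 2 of the 6 passed the threshold. At 24 h 4 of the 6 were higher without overlap, where 6.81% of all genes were, and 3 passed. The median was then 0.93, with all 6 values above 0. Gart, which encodes a trifunctional enzyme of the middle of the chain, rose at both times. At 12 h Gart stood at 69.8, 60.0 and 93.2 TPM in DECP libraries, against 20.3, 26.0 and 34.8 TPM in DECN libraries. At 24 h it stood at 79.4, 60.2, 64.4 and 50.3 TPM in DECP libraries, against 39.1, 26.4, 24.1 and 29.7 TPM in DECN libraries. The groups did not overlap at either time. The log2 changes were 1.44 ± 0.28 (SE, adjusted p = 0.0446, limma) and 1.07 ± 0.21 (adjusted p = 0.0131, limma), and the call at 24 h held with each library left out in turn.

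Pfas, which adds the nitrogen of glutamine in the chain, and Paics, a bifunctional enzyme of later steps, rose at 24 h. Pfas had 157, 152, 117 and 137 TPM in DECP libraries, against 78.0, 58.1, 73.5 and 84.2 TPM in DECN libraries. The lowest DECP library lay well above the highest DECN library, and the log2 change was 0.93 ± 0.16 (adjusted p = 0.0066, limma). Paics had 295, 281, 264 and 273 TPM in DECP libraries, against 202, 171, 122 and 161 TPM in DECN libraries. These groups did not overlap either, and the log2 change was 0.78 ± 0.14 (adjusted p = 0.00724, limma). At 12 h the same genes stood at 842 to 1092 TPM in DECP against 483 to 631 TPM in DECN for Pfas, and at 711 to 834 TPM in DECP against 516 to 683 TPM in DECN for Paics, with adjusted p-values of 0.0533 and 0.264 in limma.

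Adsl, whose enzyme acts both in the chain to IMP and on the way to AMP, rose at 12 h. Its libraries stood at 144, 136 and 145 TPM in DECP, against 69.1, 71.8 and 55.3 TPM in DECN. The groups lay well apart, with a log2 change of 1.11 ± 0.18 (adjusted p = 0.0319, limma). At 24 h Adsl ranged over 109 to 248 TPM in DECP and 93.8 to 110.4 TPM in DECN, the groups overlapped, and the adjusted p was 0.0985 (limma). Ppat, the amidotransferase that commits PRPP to purines, and Atic, which closes the ring of IMP, did not pass at either time. Ppat stood at 60.6, 44.9 and 41.0 TPM in DECP against 15.6, 16.6 and 25.3 TPM in DECN at 12 h, without overlap, with a log2 change of 1.32 (95% interval 0.66 to 1.97). Atic stood at 29.3, 28.0 and 31.7 TPM in DECP against 10.7, 23.7 and 12.2 TPM in DECN at 12 h, also without overlap, with a log2 change of 0.97 (95% interval 0.21 to 1.74).

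Ppat and Paics lie head to head on chromosome 5, and their annotated transcripts overlap by 272 bases. The library kit does not mark strand, so reads from that stretch cannot be told apart between the 2 genes. Their promoter windows are shown to place them. Those of Nme1, Impdh2, Tyms and Dtymk are shown because these members passed the threshold and hold the hexamer marked below. Nme1 has a further window, from another transcription start, that also holds the hexamer and is not shown. Windows of members that passed without it are not shown. Each window holds 250 bases before the transcription start and 50 from it on, read 5′ to 3′ on the gene's strand, from RefSeq on GRCm38.p6. Capitals mark CACGTG, a hexamer equal to its own reverse complement and known as an E-box that MYC with MAX and other factors can bind. The windows are chr5:76951052-76951351 (plus strand), chr5:76951529-76951828 (minus), chr11:93968223-93968522 (minus), chr9:108560186-108560485 (plus), chr5:30073576-30073875 (minus) and chr1:93801885-93802184 (minus).
Paics: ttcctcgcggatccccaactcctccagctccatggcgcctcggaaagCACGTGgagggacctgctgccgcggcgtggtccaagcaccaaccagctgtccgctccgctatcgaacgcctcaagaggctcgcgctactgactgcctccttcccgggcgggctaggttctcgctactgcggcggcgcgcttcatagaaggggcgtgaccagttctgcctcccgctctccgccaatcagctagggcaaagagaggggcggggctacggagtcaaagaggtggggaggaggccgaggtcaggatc
Ppat: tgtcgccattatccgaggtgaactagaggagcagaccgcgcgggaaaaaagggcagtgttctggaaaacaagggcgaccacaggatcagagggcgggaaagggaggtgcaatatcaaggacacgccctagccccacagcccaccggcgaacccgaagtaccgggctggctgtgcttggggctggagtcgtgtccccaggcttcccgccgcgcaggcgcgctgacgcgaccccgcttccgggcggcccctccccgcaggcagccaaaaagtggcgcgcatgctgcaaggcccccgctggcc
Nme1: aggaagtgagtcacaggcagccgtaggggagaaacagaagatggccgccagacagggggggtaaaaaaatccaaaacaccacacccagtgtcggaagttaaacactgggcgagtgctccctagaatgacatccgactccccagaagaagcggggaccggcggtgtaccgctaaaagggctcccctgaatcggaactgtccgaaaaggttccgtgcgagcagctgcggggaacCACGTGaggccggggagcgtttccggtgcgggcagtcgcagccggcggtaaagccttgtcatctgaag
Impdh2: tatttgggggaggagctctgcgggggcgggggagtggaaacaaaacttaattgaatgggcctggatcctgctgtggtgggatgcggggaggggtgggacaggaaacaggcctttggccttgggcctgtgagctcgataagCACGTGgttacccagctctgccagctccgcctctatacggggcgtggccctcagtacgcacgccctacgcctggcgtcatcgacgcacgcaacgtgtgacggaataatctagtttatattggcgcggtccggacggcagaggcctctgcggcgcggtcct
Tyms: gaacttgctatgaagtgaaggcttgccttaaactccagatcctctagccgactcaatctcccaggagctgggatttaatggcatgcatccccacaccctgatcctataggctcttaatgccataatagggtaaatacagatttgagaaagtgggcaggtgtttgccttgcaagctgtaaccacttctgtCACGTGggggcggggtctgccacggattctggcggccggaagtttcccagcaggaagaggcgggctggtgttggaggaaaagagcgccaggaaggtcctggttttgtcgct
Dtymk: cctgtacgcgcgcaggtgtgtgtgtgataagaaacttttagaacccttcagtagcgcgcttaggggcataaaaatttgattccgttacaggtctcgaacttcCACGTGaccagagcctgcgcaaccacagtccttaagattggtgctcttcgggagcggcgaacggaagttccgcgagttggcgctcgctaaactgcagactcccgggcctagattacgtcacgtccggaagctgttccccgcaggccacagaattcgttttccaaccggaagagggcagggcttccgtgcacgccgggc

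The hexamer was present in 6 of the 30 members with a window (20%: Atic, Dtymk, Impdh2, Nme1, Paics and Tyms), where 8.09% of 27025 genes with a window held it. Those 27025 genes were not limited to genes that passed the filter on low values, as all members did. Windows of Pfas and Dhodh were not used here. Of the 11 members that rose at 24 h, 10 had a window and 5 of these held the hexamer, and of the 5 that rose at 12 h it was held by 1, Nme1. Of the 20 with a window that did not rise at 24 h, Atic was the single one that did. Some genes have several windows, and such a gene was counted as holding the hexamer if any of them did. These are counts of letters in a fixed window, and no binding was measured. Ppat, whose start lies close to that of Paics, had no CACGTG in its own window.

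Of the 5 genes that lead from IMP to AMP and GMP 2 rose at 24 h, both of the guanine branch, and 0 passed at 12 h. Impdh2, whose enzyme limits the rate of GMP formation, stood at 536, 350.2, 383 and 342 TPM in DECP libraries at 24 h, against 209, 242, 202 and 292 TPM in DECN libraries. Gmps, which completes GMP, stood at 39.0, 35.5, 38.5 and 35.2 TPM in DECP libraries, against 18.6, 17.2, 21.1 and 28.3 TPM in DECN libraries. Neither gene's groups overlapped. The log2 changes were 0.76 ± 0.18 (adjusted p = 0.0376, limma) for Impdh2 and 0.79 ± 0.18 (adjusted p = 0.0307, limma) for Gmps. Impdh2 lost its call in 6 of the 8 fits with 1 library left out (those without replicates 1, 2 or 3 of either group), and Gmps in 7 of 8 (all but that without DECN replicate 4). Their adjusted p-values in these limma fits reached 0.108 and 0.0900. Shared sequence limits some of these values, since reads that match several genes are divided by an estimate. Of the 31-base words of Impdh2 transcripts 73.0% also occur in another gene, most of them in the pseudogene Impdh2-ps, so its level is uncertain. The share was 21.2% for Tyms, 21.1% for Paics and 14% for Gart.

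At 12 h Impdh2 was higher without overlap, at 219, 304 and 303 TPM in DECP against 125, 105 and 210.3 TPM in DECN, with an adjusted p of 0.123 (limma). Gmps at 12 h overlapped, at 60.8 to 90.5 TPM in DECP and 48.5 to 82.8 TPM in DECN. Impdh1, the other IMP dehydrogenase gene, was far lower, at 9.78, 6.58, 2.29 and 5.75 TPM in DECP against 4.83, 1.87, 0.308 and 0.981 TPM in DECN at 24 h. Its log2 change was 1.35, with an interval of 0.048 to 2.65. Adss, whose enzyme opens the branch to AMP, stood at 66.6, 87.0, 62.0 and 65.0 TPM in DECP against 51.0, 49.8, 43.8 and 56.4 TPM in DECN at 24 h. The groups did not overlap, and the adjusted p was 0.188 (limma). Adssl1, its muscle-type counterpart, was low and scattered, at 3.45 to 13.1 TPM in DECP and 4.02 to 13.1 TPM in DECN. Its log2 change was -0.16 at 24 h, and the difference between the forms of either enzyme was not tested.

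PRPP itself is made by Prps1 and Prps2. Prps1 stood at 67.4, 71.1 and 81.5 TPM in DECP libraries at 12 h, against 34.5, 46.9 and 37.5 TPM in DECN libraries, without overlap. The log2 change was 0.88, with an adjusted p of 0.0712 (limma). Prps2 was at 20.3, 22.3 and 33.9 TPM in DECP against 19.1, 18.7 and 17.1 TPM in DECN, and its log2 change of 0.43 had an interval of -0.20 to 1.06. At 24 h the log2 changes were 1.07 (0.24 to 1.90) for Prps1 and 0.23 (-0.31 to 0.77) for Prps2. Of the words of Prps1 18.8% are shared with Prps1l3, so its level is uncertain too.

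Pyrimidine synthesis showed a median log2 change close to that of the purine chain, 1.14 at 12 h and 0.78 at 24 h, over 5 genes. Only Ctps among these 5 passed the threshold, and it did so at 24 h. Ctps encodes CTP synthetase, which turns UTP into CTP. Its libraries stood at 80.3, 45.3, 47.6 and 47.2 TPM in DECP at 24 h, against 23.0, 17.3, 11.7 and 31.8 TPM in DECN. No DECP library reached down to the DECN range, although DECP replicate 1 was far above the other DECP libraries. The log2 change was 1.40 ± 0.30 (adjusted p = 0.0214, limma), and without DECP replicate 1 it was 1.21 with an adjusted p of 0.0729 (limma). Leaving out DECN replicate 2 or DECN replicate 3 ended the call as well, with log2 changes of 1.34 and 1.16. At 12 h Ctps stood at 49.6, 79.8 and 64.4 TPM in DECP against 24.3, 26.1 and 30.7 TPM in DECN, and its log2 change of 1.21 had an adjusted p of 0.0503 (limma).

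Ctps2, the second CTP synthetase gene, ranged widely. At 24 h it stood at 15.0, 26.8, 8.48 and 29.3 TPM in DECP against 19.5, 20.4, 26.4 and 23.4 TPM in DECN, with a log2 change of -0.30 and an interval of -1.62 to 1.02. At 12 h its log2 change was -0.79 (-2.30 to 0.71). Umps, whose enzyme forms uridine monophosphate, stood at 41.5, 47.6 and 59.8 TPM in DECP against 22.0, 15.9 and 24.4 TPM in DECN at 12 h. The groups did not overlap, and the log2 change was 1.22 (adjusted p = 0.0536, limma). Dhodh, the mitochondrial dehydrogenase of the chain, stood at 37.2, 13.8, 13.3 and 13.9 TPM in DECP against 11.6, 12.6, 6.55 and 6.45 TPM in DECN at 24 h. The groups did not overlap, but 1 DECP library stood far above the other 3, and the adjusted p was 0.215 (limma). Cad stood at 4.96, 5.31 and 13.8 TPM in DECP against 1.87, 3.29 and 3.27 TPM in DECN at 12 h, without overlap, and its adjusted p was 0.193 (limma).

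Salvage was less uniform. Over the 6 salvage genes the median log2 change was 0.34 at 12 h and 0.35 at 24 h, beside 0.96 and 0.79 over the 16 de novo genes of both arms. The salvage median hides a split. It was 1.44 and 0.74 for the 2 genes of purine base salvage, and 0.068 and 0.28 for the 4 of nucleoside salvage. These medians describe the lists, and their differences were not tested. Uck2, a kinase that salvages uridine and cytidine, had the largest log2 change of all members at 24 h. It stood at 39.7, 59.9, 37.7 and 36.0 TPM in DECP libraries, against 23.1, 9.85, 8.86 and 3.71 TPM in DECN libraries. Every DECP library was above every DECN library, and the mean TPM was 3.81 times as high, or 5.80 times without DECN replicate 1, the highest of its group. The log2 change was 2.05 ± 0.39 (adjusted p = 0.0114, limma), and the call held with each library left out. At 12 h Uck2 stood at 84.7, 45.8 and 133 TPM in DECP against 29.4, 29.4 and 33.1 TPM in DECN, without overlap, with an adjusted p of 0.0997 (limma).

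Uck1, the other uridine-cytidine kinase gene, did not share that pattern. At 24 h it stood at 52.6, 35.6, 53.8 and 48.6 TPM in DECP against 55.8, 56.6, 59.8 and 62.0 TPM in DECN. Every DECP library was below every DECN library, but the gene did not pass. The log2 change was -0.31, with an interval of -0.80 to 0.18 that lies entirely below that of Uck2 (1.20 to 2.89). The difference between the 2 genes was not tested, and 26.1% of the words of Uck1 are shared with other genes. Tk1, the cytosolic thymidine kinase, and Dck, which phosphorylates deoxycytidine, overlapped between the groups at both times. Their log2 changes at 24 h were 0.31 (-0.11 to 0.74) and 0.24 (-0.20 to 0.68).

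**Figure D2:**
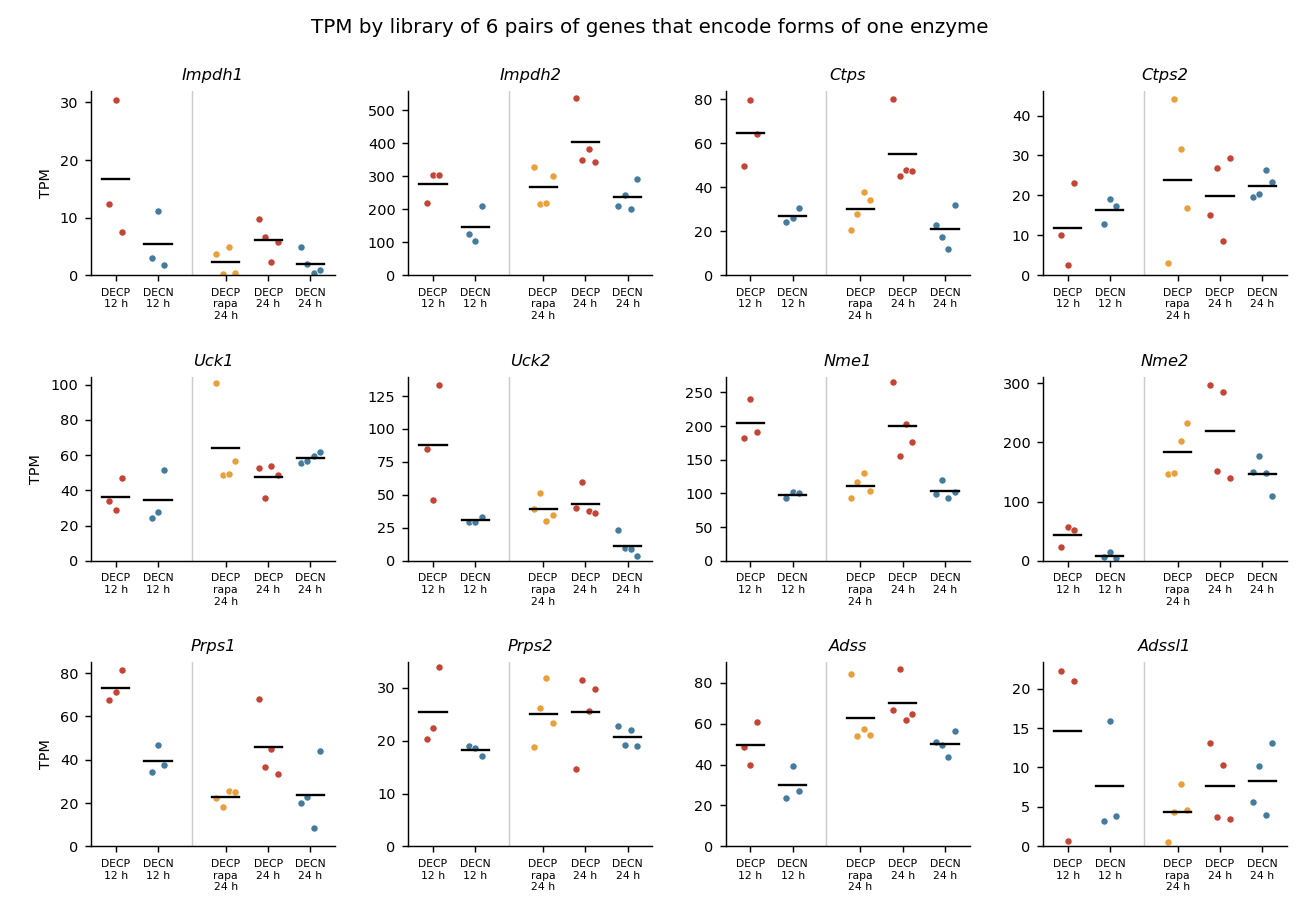
TPM (y axis, from 0) in each library of 6 pairs of genes that encode forms of one enzyme; points are libraries, bars are group means and the vertical line parts the separately normalized 12 h and 24 h tables. Uck2 is higher in every DECP library than in every DECN library at both times, whereas Uck1 overlaps at 12 h and is lower in DECP at 24 h.

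Aprt and Hprt, which return adenine and the bases hypoxanthine and guanine to nucleotides, were both higher in DECP at 12 h. Aprt rose, at 27.2, 39.2 and 47.6 TPM in DECP libraries against 4.82, 8.92 and 6.82 TPM in DECN libraries. The groups were far apart, with a mean TPM 5.55 times as high and a log2 change of 2.31 ± 0.33 (adjusted p = 0.0208, limma), the largest of the members at that time. At 24 h Aprt stood at 325, 91.8, 159.7 and 125 TPM in DECP against 62.8, 90.2, 47.0 and 103 TPM in DECN, the groups overlapped, and the adjusted p was 0.112 (limma). Hprt stood at 115, 165 and 159.6 TPM in DECP against 101, 84.8 and 109 TPM in DECN at 12 h, with a log2 change of 0.56 (adjusted p = 0.196, limma).

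Among the kinases that carry nucleotides to the triphosphate, Nme1 rose at both times. It encodes a nucleoside diphosphate kinase. At 12 h Nme1 stood at 182, 239.7 and 191 TPM in DECP libraries, against 92.5, 102 and 100.2 TPM in DECN libraries. At 24 h it stood at 265, 156, 203 and 176 TPM in DECP libraries, against 98.5, 119.8, 93.9 and 102 TPM in DECN libraries. The DECN values kept within a narrow band at each time, and every DECP library was above it. The log2 changes were 1.04 ± 0.18 (adjusted p = 0.0339, limma) and 0.92 ± 0.17 (adjusted p = 0.01, limma). Nme2, a neighbouring gene for the same activity, stood at 23.5, 56.8 and 52.6 TPM in DECP against 6.88, 14.0 and 5.22 TPM in DECN at 12 h. Its log2 change of 2.23 had an adjusted p of 0.0511 (limma). Of the words of Nme2 47.9% occur in the read-through gene Gm20390, as do 11.7% of those of Nme1, so reads are divided among them by an estimate. Nme4, the mitochondrial form, was at 3.57 to 4.15 TPM in DECP and 1.60 to 5.21 TPM in DECN at 12 h.

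Guk1, the kinase that turns GMP into GDP, rose at 12 h. It stood at 30.5, 26.4 and 34.5 TPM in DECP libraries, against 6.15, 9.86 and 13.6 TPM in DECN libraries. All DECP values exceeded all DECN values, with a log2 change of 1.59 ± 0.32 and an adjusted p of 0.0498 (limma) at the edge of the threshold. Dtymk rose at 24 h, at 752, 528, 598 and 556 TPM in DECP against 414, 405, 393 and 282 TPM in DECN, with a log2 change of 0.71 ± 0.16 (adjusted p = 0.0293, limma). The groups did not overlap, but the call was lost in 5 of the 8 fits with 1 library left out (those without DECP replicates 1 or 3 or DECN replicates 2, 3 or 4), with adjusted p-values up to 0.0916 in limma. At 12 h Dtymk overlapped between the groups, at 1159, 1647 and 1517 TPM in DECP and 1141, 1582 and 2015 TPM in DECN. Cmpk1, which phosphorylates UMP and CMP, had log2 changes of 0.26 (-0.35 to 0.87) at 12 h and 0.15 (-0.099 to 0.39) at 24 h.

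Both genes of thymidylate formation rose at 24 h. Dut, which makes dUMP and keeps uracil out of DNA, stood at 569, 459, 510.1 and 467 TPM in DECP libraries, against 297, 304, 243 and 274 TPM in DECN libraries. Tyms, which turns dUMP into dTMP, stood at 156, 172, 179 and 204 TPM in DECP libraries, against 94.7, 74.6, 125 and 107 TPM in DECN libraries. Neither gene's groups overlapped. The log2 changes were 0.84 ± 0.13 (adjusted p = 0.00366, limma) and 0.83 ± 0.17 (adjusted p = 0.0164, limma), and Tyms alone of the pair lost its call without 1 library, DECP replicate 4 (adjusted p = 0.0503). At 12 h Dut was at 289, 266 and 353 TPM in DECP against 217, 201 and 217 TPM in DECN, without overlap, and Tyms at 779.8, 1196 and 979.7 TPM in DECP against 647, 763 and 828 TPM in DECN, with overlap. Their adjusted p-values were 0.154 and 0.32 (limma).

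**Figure D3:**
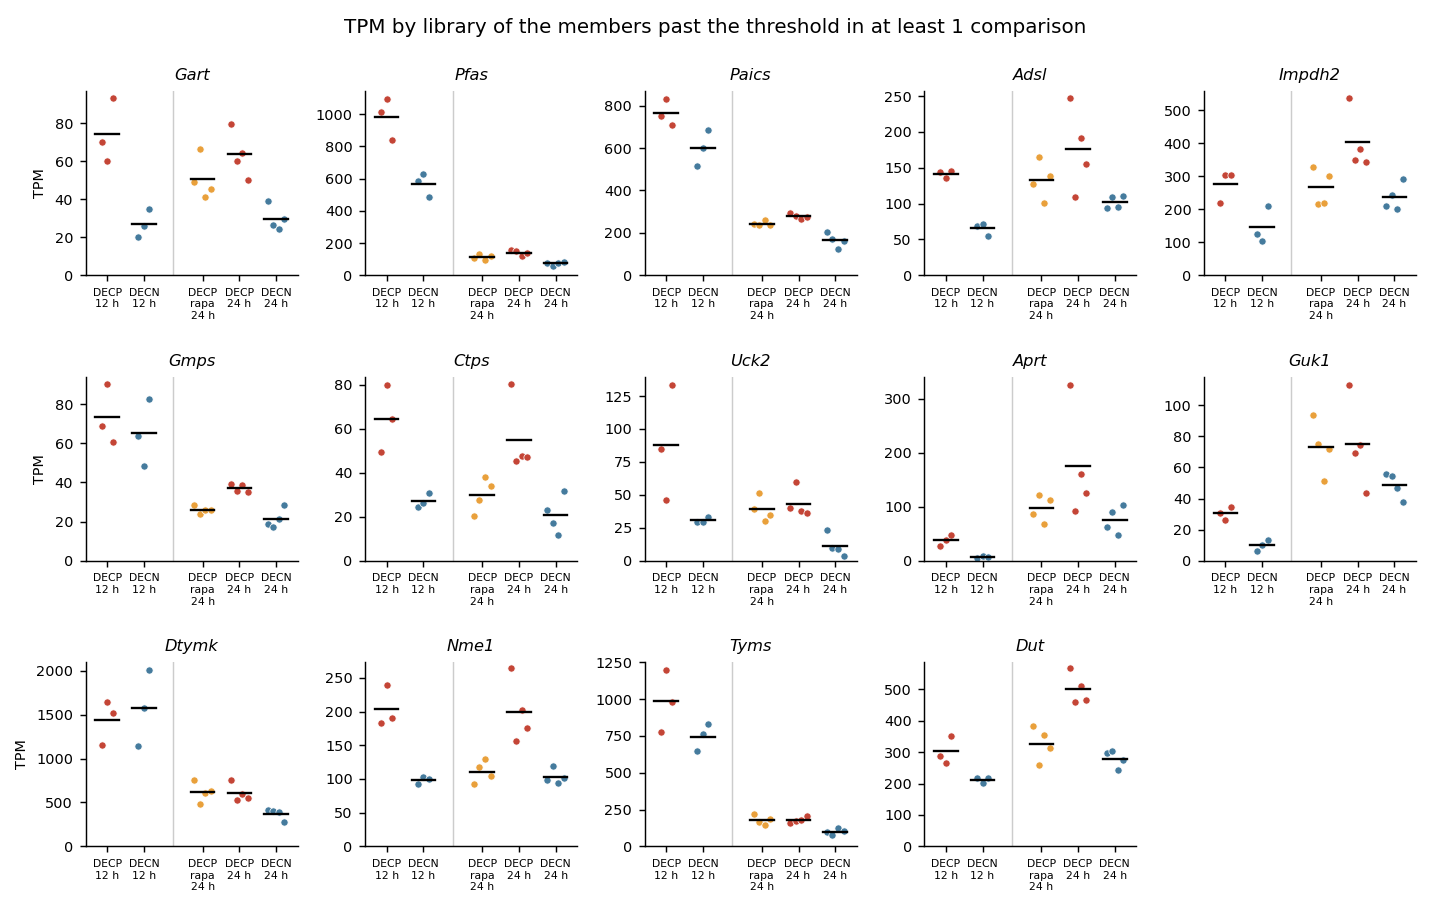
TPM (y axis, from 0) in each library of the 14 genes past the threshold in at least 1 comparison; points are libraries, bars are group means, rapa is rapamycin, and the vertical line parts the separately normalized tables. Gart and Nme1 passed the threshold in DECP over DECN at both times, and Ctps, Dut, Impdh2, Paics, Pfas and Uck2 also separate these groups at both times. Nme1 and Dut passed as lower with rapamycin than in untreated DECP, and Ctps, Gmps, Impdh2 and Paics are also lower without overlap.

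Whether the difference between DECP and DECN itself changed with time was tested over all 18 libraries. No member passed (0 of 32, where 0.192% of 15085 genes were higher and 0.583% lower). Values were above 0 for 14 members and for 51.8% of the genes. An unadjusted p under 0.05 in limma was reached by 4 members, 1 higher and 3 lower. Of the 15085 genes 715 were higher and 828 lower at that p, a share close to that of the members. For Aprt, Guk1 and Nme2 the difference at 24 h minus that at 12 h was -1.21, -1.04 and -1.72, with adjusted p-values of 0.435, 0.384 and 0.161 (limma). For Dtymk it was 0.82 (0.21 to 1.42; adjusted p = 0.275, limma). Calls at 1 time and not at the other are therefore not shown to differ between the times. Aprt, Guk1 and Nme2 have short transcripts, of 849, 1078 and 1012 bases, against a median of 2738 bases over the members. Dtymk (1055 bases) and Nme4 (1006 bases) are as short, and their 12 h log2 changes were -0.11 and 0.30. With a trend on transcript length removed from each library, the 12 h log2 changes were 2.12 for Aprt, 1.40 for Guk1 and 2.04 for Nme2, beside 2.31, 1.59 and 2.23 with the trend left in, and Guk1 no longer passed (adjusted p = 0.0710, limma). The part of transcript length in these changes was not tested. Ribosomal protein genes took 3.39% to 4.48% of TPM in DECP and 1.61% to 1.97% in DECN libraries at 12 h. With TPM rescaled without them 9 members rose at 12 h, where 293 of all genes rose and 143 fell, beside 247 and 141 before. The median log2 change was then 0.79 over the members and -0.028 over all genes.

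**Figure D4:**
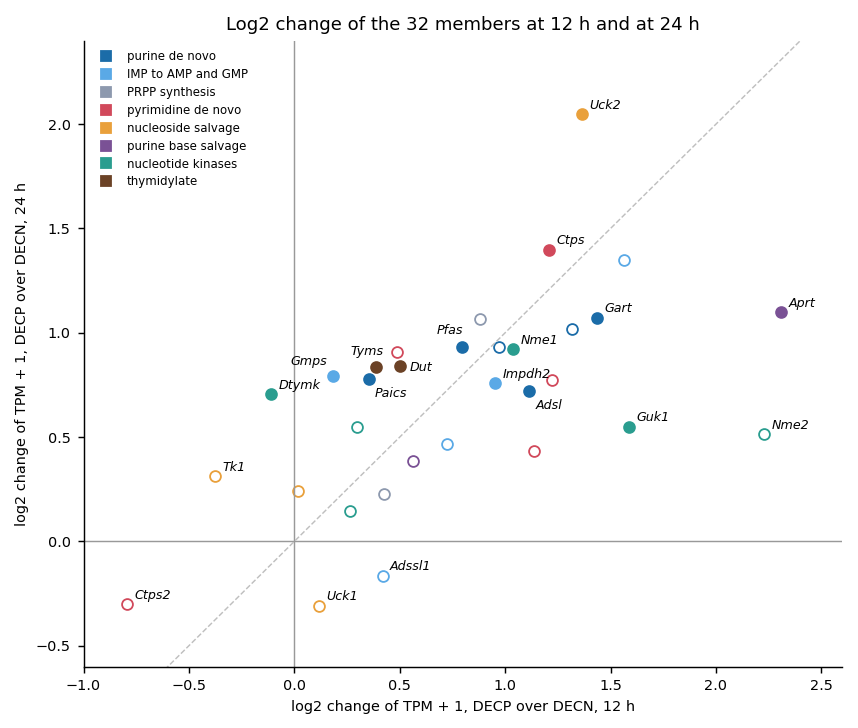
Log2 change of TPM + 1 in DECP over DECN at 12 h (x axis) and at 24 h (y axis) for each of the 32 genes; filled points passed the threshold at 12 h or 24 h, colours give the step, and the dashed line marks equal change. Points above 0 on both axes number 27.

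The rapamycin libraries show how the members stood at 24 h in DECP cells of hosts given the inhibitor. Between rapamycin-treated and untreated DECP cells 0 members rose and 2 fell, where 0.657% of the 12783 genes rose and 1.53% fell. The median log2 change was -0.34, beside 0.022 over all genes, and 5 of 32 values were above 0, where 52% of all genes were. Of the members 10 were lower in every rapamycin-treated library than in every untreated DECP library, where 5.33% of all genes were, and 0 were higher without overlap, where 3.63% were. Nme1 stood at 93.0, 117, 129.7 and 104 TPM in rapamycin-treated DECP libraries, against 265, 156, 203 and 176 TPM in DECP libraries. It fell by 0.83 ± 0.17 on the log2 scale (adjusted p = 0.0255, limma). Dut stood at 382, 259.7, 356 and 313 TPM in rapamycin-treated DECP libraries, against 569, 459, 510.1 and 467 TPM in DECP libraries. It fell by 0.62 ± 0.13 on the log2 scale (adjusted p = 0.0283, limma).

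Neither gene's treated and untreated DECP groups overlapped. In rapamycin-treated DECP over DECN the log2 changes were 0.095 (-0.27 to 0.46) for Nme1 and 0.22 (-0.066 to 0.50) for Dut. DECN libraries ranged over 93.9 to 119.8 TPM for Nme1 and 243 to 304 TPM for Dut, beside 260 to 382 TPM for Dut in treated libraries. Both genes were picked for low values in these treated libraries, so their place relative to DECN is no result of its own. Both calls are sensitive to single libraries. Nme1 lost its call in 4 of 8 fits with 1 library left out (without rapamycin-treated replicate 1 or 4 or DECP replicate 1 or 3) and Dut in 6 of 8 (without rapamycin-treated replicate 2, 3 or 4 or DECP replicate 1, 3 or 4), with adjusted p-values up to 0.0817 and 0.0844 in limma. Ribosomal protein genes took 23.0% to 25.1% of TPM in rapamycin-treated DECP, 18.3% to 21.9% in DECP and 17.9% to 20.5% in DECN libraries. Rescaled without them, 0 members passed. Nme1 then had a log2 change of -0.75 (adjusted p = 0.0595, limma) and Dut one of -0.55 (adjusted p = 0.0804, limma), and the median over the members was -0.27 beside 0.084 over all genes.

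Other members that were lower with rapamycin without overlap did not pass. Hprt stood at 194, 177, 201 and 187 TPM in rapamycin-treated DECP libraries, against 252, 316, 248 and 274 TPM in DECP libraries, with a log2 change of -0.52 (adjusted p = 0.0537, limma). Ctps stood at 20.5, 27.8, 38.0 and 34.1 TPM in rapamycin-treated DECP, against the 45.3 to 80.3 TPM of DECP given above, with a log2 change of -0.84 (-1.50 to -0.19). For Gmps and Impdh2 the log2 changes were -0.49 (-0.89 to -0.092) and -0.60 (-0.99 to -0.20). Prps1, Dck and Cmpk1 had -0.94 (-1.77 to -0.11), -0.67 (-1.11 to -0.23) and -0.39 (-0.64 to -0.15). Paics, whose 2 ranges nearly met (236 to 259.8 TPM in rapamycin-treated DECP and 264 to 295 TPM in DECP), had -0.19 (-0.48 to 0.11).

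By step the median log2 changes with rapamycin were -0.34 for the chain to IMP, -0.60 for IMP to AMP and GMP, -0.29 for pyrimidine synthesis, -0.62 for purine base salvage, -0.23 for nucleoside salvage, -0.098 for the nucleotide kinases, -0.46 for PRPP synthesis and -0.31 for thymidylate formation. In the chain to IMP the 6 values ran between -0.72 for Ppat and -0.19 for Paics, and each interval spanned 0.

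Rapamycin-treated DECP over DECN gave 3 members that rose and 0 that fell, where 0.774% of genes rose and 0.532% fell. DECN cells of rapamycin-treated hosts are not analysed here. The 3 genes were Uck2, Tyms and Dtymk, and the median over the 32 members was 0.30 beside 0.021 over all genes. Values were above 0 for 26 of the 32, where 52% of all genes were. Uck2 stood at 39.6, 51.8, 30.0 and 34.8 TPM in rapamycin-treated DECP libraries, against 23.1, 9.85, 8.86 and 3.71 TPM in DECN libraries, with a log2 change of 1.90 ± 0.39 (adjusted p = 0.0392, limma). Every treated library exceeded every DECN library, and the ratio of mean TPM was 3.43, or 5.22 without DECN replicate 1.

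Tyms stood at 217, 165, 146 and 183 TPM in rapamycin-treated DECP libraries, against 94.7, 74.6, 125 and 107 TPM in DECN libraries, with a log2 change of 0.83 ± 0.17 (adjusted p = 0.0398, limma). Dtymk stood at 759, 486, 609.6 and 632 TPM in rapamycin-treated DECP libraries, against 414, 405, 393 and 282 TPM in DECN libraries, with a log2 change of 0.73 ± 0.16 (adjusted p = 0.0479, limma). Neither of these genes overlapped between the groups. Against untreated DECP, Uck2, Tyms and Dtymk had log2 changes of -0.15 (-0.99 to 0.70), -0.0063 (-0.38 to 0.36) and 0.026 (-0.33 to 0.38). These genes were picked for high values in the same treated libraries, so the unadjusted intervals set no bound on a fall with rapamycin. The 3 comparisons at 24 h share libraries. With 1 library left out, Uck2 and Dtymk kept the call against DECN in 1 of 8 fits (Uck2 without DECN replicate 1, Dtymk without rapamycin-treated replicate 2) and Tyms in 2 of 8 (without rapamycin-treated replicate 3 or DECN replicate 3).

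Of the 32 members, 6 were higher in every rapamycin-treated DECP library than in every DECN library (Dtymk, Gart, Paics, Pfas, Tyms and Uck2), where 4.62% of all genes were, and 0 were lower without overlap, where 3.94% were. The DECN libraries also served untreated DECP, and the untreated DECP libraries are those that rapamycin was set against, so the place of a treated level between the 2 untreated groups is no result of its own. Paics had a log2 change of 0.59 against DECN (adjusted p = 0.057, limma), and quantile scaling turned its change against untreated DECP and that of Tyms to 0.077 and 0.22. Gart stood at 49.0, 66.3, 41.3 and 45.1 TPM and Pfas at 107, 135, 94.7 and 117 TPM in rapamycin-treated DECP libraries, and against DECN their log2 changes were 0.74 (adjusted p = 0.124, limma) and 0.62 (adjusted p = 0.0869, limma).

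At 24 h the libraries carry 2 second indices, balanced over the groups, and the labels do not say whether an index marks a batch. The log2 changes of the 11 members that rose lay between 0.50 and 2.87 among libraries with the index of DECP replicates 1 and 2 and between 0.49 and 1.23 among those with that of replicates 3 and 4. Uck2 spread most, with 2.87 and 1.23. Against untreated DECP, the log2 changes with rapamycin within the 2 indices were -0.95 and -0.70 for Nme1 and -0.70 and -0.55 for Dut. The groups of all these genes did not overlap, which fixes the direction within an index, so these values show sizes and are no check of direction. With 2 libraries a group, 0 members passed within either index.

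Of 49 other genes of nucleotide metabolism 41 were tested at 12 h, of which 2 rose and 0 fell, with a median log2 change of 0.020. The median of these genes at 24 h was 0.26 in DECP over DECN, beside 0.77 for the members, -0.34 in rapamycin-treated over untreated DECP, beside -0.34, and -0.045 in rapamycin-treated DECP over DECN, beside 0.30. At 12 h those that rose were Shmt2 and Mthfd1, which supply folate-bound carbon units to purines and thymidylate. Shmt2 reached 129 ± 15.3 TPM in DECP and 26.7 ± 3.27 TPM in DECN (SD, n = 3 each), and Mthfd1 92.2 ± 16.7 TPM in DECP and 19.3 ± 5.92 TPM in DECN. At 24 h 3 of 38 rose (Rrm1, Rrm2 and Mthfd1) and 2 fell, Samhd1, which breaks down deoxynucleotides, and Dguok, which salvages purine deoxynucleosides in mitochondria. Rrm1 and Rrm2 encode ribonucleotide reductase, which makes deoxynucleotides, and had log2 changes of 0.98 and 0.71 in DECP over DECN (adjusted p = 0.01 and 0.0243, limma). With rapamycin Rrm1, Rrm2 and Ak6, an adenylate kinase, fell relative to untreated DECP, by 0.79, 0.74 and 0.56 on the log2 scale, with adjusted p-values between 0.0155 and 0.0406 in limma.

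Genes of the cell cycle moved at 24 h too. Genes that germinal centre B cells are known by moved as well, with 3 of 10 lower in DECP than DECN and 3 of 10 higher with rapamycin past the threshold. Of 20 genes of G2 and mitosis 7 rose in DECP over DECN and 4 fell with rapamycin, and of 24 genes of G1 and S phase 2 rose (Pcna and Gins1) and 1 fell with rapamycin (Pcna). The summed level of the G2 and mitosis list was 926 to 1262 TPM in rapamycin-treated DECP, 1606 to 2251 TPM in DECP and 775 to 1101 TPM in DECN libraries. That of the G1 and S list was 2182 to 2876 TPM in rapamycin-treated DECP, 3165 to 3309 TPM in DECP and 2396 to 2611 TPM in DECN libraries. The summed level of the 32 members was 3077 to 3553 TPM in rapamycin-treated DECP, 3795 to 5030 TPM in DECP and 2409 to 2731 TPM in DECN libraries. These ranges did not overlap, but a sum follows the most abundant members, such as Dtymk. Member by member, 10 of 32 lay below untreated DECP without overlap (5.33% of all genes) and 6 above DECN (4.62%). The place of the treated sum between the untreated groups is no result of its own. At 12 h the members summed to 5595 to 6838 TPM in DECP and 4115 to 5455 TPM in DECN. The G2 and mitosis list (2037 to 2693 TPM in DECP, 1828 to 2786 TPM in DECN) and the G1 and S list (3486 to 4337 TPM in DECP, 2992 to 3951 TPM in DECN) overlapped. At that time 0 of their genes passed. An unadjusted p under 0.05 (limma) was reached by 7, all higher, where 1452 of 13429 genes were higher at that p. The 12 h median log2 change was 0.36 for G2 and mitosis (14 of 20 above 0) and 0.19 for G1 and S (18 of 24 above 0), beside -0.054 over all genes. The part of the cell cycle in the levels of the members was not tested.

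The authors' deposited table for 12 h gave 14 members as higher in DECP and 0 as lower at an adjusted p under 0.05, where it gave 7.21% of 13624 genes as higher. The authors' deposited table for 24 h gave 15 as higher and 0 as lower, where 5.20% of 12034 genes were higher. With rapamycin the authors' deposited table against DECN gave 5 members as higher (Dtymk, Paics, Pfas, Tyms and Uck2), where 1.84% of genes were higher. The authors' deposited table of rapamycin-treated over untreated DECP gave 6 as lower (Cmpk1, Dck, Dut, Gmps, Hprt and Nme1) of the 30 with a p-value, where 5.50% of 9022 genes were lower. All members called here were among them.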

How the data were processed

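RNA of sorted light zone B cells was sequenced in 18 libraries of 5 groups, with Nextera XT libraries that do not mark strand, per the labels' protocols. Transcripts were quantified with kallisto 0.43.0 against mouse GRCm38, per the submitters' processing notes. Expression comes as 2 deposited tables of gene-level scores, TPM plus 1 by their values, 1 for each time and scaled separately. The 4 deposited tables of comparisons hold a signal (mean expression), a log2 fold change with the reference group on top and p-values, per the file headers, and no source used here names the tool. Read totals were not used here, so the depth of each library is unknown and no counting interval is given.

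From the deposited values 1 was subtracted, and genes with at least 1 TPM in at least 3 libraries (12 h, and both times together) or 4 libraries (24 h) were kept. Linear models were fitted to log2(TPM + 1) with limma 3.58.1 in R 4.3.3, with moderated variances and an intensity trend, and adjusted by Benjamini-Hochberg over all genes tested. This scale understates changes of low genes. The 24 h comparisons used all 12 libraries in 1 fit, and the difference between times all 18. The scripts were tested on simulated data. Intervals are 95% intervals, unadjusted. Group overlap compares every library of one group with every library of the other. All member genes are named, with values in each library for those past the threshold in a comparison and for pairs of related enzymes, and genes of the other nucleotide and cell cycle lists are named where they passed. Library values of other members and the marker genes given were chosen after their values were seen. Of the lists, 1 other nucleotide gene and 2 germinal centre B cell genes are not reported here. Members and lists were chosen with earlier results of these data known. Gene models are GENCODE M21, in which 30202 of 30452 gene IDs were found, and promoters RefSeq on GRCm38.p6. Alternatives changed the pseudocount (0.1 or 5), the filter (none or 5 TPM), the scaling, the variance trend, a block for replicate number, the second index, the groups fitted and the libraries used. The removal of a length trend and the split by second index were chosen after seeing the data. Replicates with the same number in 2 groups did not deviate together (correlations between -0.057 and 0.092), so the numbers were not used to pair libraries.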

Additional observations from a re-analysis of the deposited data

Results flagged for a closer look

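Among the 96 sets of 4 libraries of a member in a 24 h group, 7 held a library whose gap to the next was too large for its group by Dixon's ratio, where chance alone gives about 1 in 20 sets, or 4.8. Replicate 1 of rapamycin-treated DECP was high for Adss, with 84.6 TPM beside 54.1 to 57.4 TPM in the other 3 libraries, and for Uck1, with 101 TPM beside 48.6 to 56.4 TPM. Replicate 1 of DECP was high for Dhodh, with 37.2 TPM beside 13.3 to 13.9 TPM, and for Ctps, with 80.3 TPM beside 45.3 to 47.6 TPM. Replicate 2 of DECP was high for Uck2, with 59.9 TPM beside 36.0 to 39.7 TPM. Among DECN libraries, replicate 1 was high for Umps, with 27.6 TPM beside 15.1 to 16.5 TPM, and replicate 4 was low for Dtymk, with 282 TPM beside 393 to 414 TPM. Of the genes past the threshold, Ctps in DECP over DECN lost its call without that library, as given above, and Dtymk also without DECN replicate 4. Uck2 kept its call at 24 h without DECP replicate 2.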

How the results depend on the processing

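Over single genes, 2320 values under an alternative kept direction and side of the threshold, 178 lost and 25 gained a call, and 61 changed sign. A call could be lost only by a member past the threshold, and the 2320 also hold values of members not past it. Losses ran from 2 of 23 alternatives (Pfas among others, DECP over DECN at 24 h) to 18 of 23 (Dtymk, rapamycin-treated DECP over DECN). In DECP over DECN at 12 h the 388 genes became 30 with no filter, 595 with a filter of 5 TPM, 103 with no variance trend and 0 with the replicate block, and the 5 members 3 with a pseudocount of 0.1, 0 with no filter, 10 with 5 TPM, 9 without ribosomal protein genes, 1 with no trend and 0 with the block. Single libraries left out gave 0 to 91 genes and 0 members. At 24 h the 517 genes became 329 with no filter, 182 with no trend, 344 with the block and 0 or 12 within a second index, and the 11 members 5 with no trend and 0 within either index. Left-out libraries gave 273 to 387 genes and 7 to 11 members, with 7 without DECP replicate 1, DECN replicate 2 or DECN replicate 3. In rapamycin-treated over untreated DECP the 279 genes became 164 with no filter, 130 with quantile scaling, 179 without ribosomal protein genes, 0 with no trend, 98 with the block, 140 with the 2 groups alone and 0 within either index. The 2 members became 4 with median centring and 0 under each of those 8. Left-out libraries gave 101 to 199 genes and 0 to 2 members. Against DECN the 167 genes became 52 with no filter, 103 with quantile scaling, 106 with median centring, 22 with no trend, 41 with the block and 0 or 6 within an index. The 3 members became 1 with median centring, 5 without ribosomal protein genes and 0 with no filter, no trend, the block, the 2 groups alone or either index. Left-out libraries gave 32 to 117 genes and 0 to 2 members. For the difference between times the 117 genes became 59 with no trend and 68 to 138 with a library left out. The cause was not tested, other than that an index holds 2 libraries a group. The share of higher and lower calls moved with scaling and within an index. With rapamycin against DECP it was 84 higher and 195 lower, against 76 and 54 with quantile scaling and 92 and 87 without ribosomal protein genes, and against DECN 99 and 68, against 49 and 54, 41 and 65 (median centring) and 146 and 41. In DECP over DECN at 24 h 348 and 169 became 219 and 209 with quantile scaling and 1 and 11 within the index of DECP replicates 3 and 4, which against DECN gave 0 and 6 with rapamycin. Leaving ribosomal protein genes out put the median of all genes at 0.11 in rapamycin-treated DECP over DECN, where that of the members was 0.40. Without a length trend Impdh2 (adjusted p = 0.0550, limma) and Dtymk (0.0531) lost their 24 h calls.

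No gene past the threshold in a comparison changed sign in it under these alternatives. The groups of these genes did not overlap, so only the changes of scaling and the removal of the length trend could have turned a sign. For the other alternatives the direction was fixed in advance. Of genes near 0, quantile scaling turned the log2 change of Dck at 12 h to -0.047, of Cmpk1 at 24 h to -0.0035, of Paics, Nme2 and Tyms with rapamycin over DECP to 0.077, 0.039 and 0.22, and of Impdh1 and Tk1 over DECN to -0.091 and 0.052. Median centring turned Dck at 12 h to -0.012, and Prps2, Guk1 and Dtymk over DECP to -0.052, -0.055 and -0.034. Leaving out ribosomal protein genes turned Tyms over DECP to 0.066 and Tk1 over DECN to 0.089, a pseudocount of 0.1 Impdh1 over DECN to -0.14, one of 5 Ctps2 over DECP to 0.025, and the length trend Prps2 over DECP to -0.0090. With a library left out, values that crossed 0 at 12 h ran from -0.23 to 1.68 for Adssl1, -0.0065 to 0.37 for Gmps, -0.086 to 0.44 for Uck1, -0.39 to 0.36 for Dck, -0.32 to 0.085 for Dtymk and -0.0072 to 0.62 for Nme4. At 24 h they ran from -0.46 to 0.093 for Adssl1 and -0.53 to 0.031 for Ctps2. Over DECP they ran from -0.22 to 0.13 for Prps2, -0.41 to 0.095 for Cad, -0.42 to 0.053 for Dhodh, -0.51 to 0.65 for Ctps2, -0.29 to 0.018 for Uck2, -0.23 to 0.23 for Guk1, -0.076 to 0.14 for Dtymk and -0.11 to 0.082 for Tyms. Over DECN they ran from -0.36 to 0.43 for Impdh1, -0.26 to 0.49 for Prps1, -0.81 to 0.35 for Ctps2, -0.18 to 0.16 for Uck1 and -0.12 to 0.15 for Tk1.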
